A study of Homo sapiens with 4 samples.

Results

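The genes described here are 38 RNA-binding regulators of splicing: heterogeneous nuclear ribonucleoproteins (hnRNPs) and close relatives, serine/arginine-rich (SR) proteins and the TRA2 proteins. They were chosen by family, through a list of gene symbols. All 38 were found among 25027 gene symbols or unmatched identifiers in the deposited tables, and all passed the filter on length and level used below, as did 11053 genes in total. RNA came from RPE1, a line of human retinal pigment epithelium made immortal by the catalytic subunit of telomerase (hTERT), after transfection with Stealth siRNA at 10 nM by Lipofectamine RNAiMAX. Cells received either a negative control siRNA or an siRNA against SAF-A (scaffold attachment factor A, encoded by HNRNPU) and were taken at 24 h or 48 h. The 4 groups, 2 siRNAs at 2 times, have 1 library of rRNA-depleted total RNA each. Where 4 values of a gene follow each other, they are for the control library and the SAF-A library of 24 h and then for the control library and the SAF-A library of 48 h. All come from 1 cell line, and a single siRNA sequence against SAF-A was used. Without replicates, the differences at 1 time have no replicate check and no test.

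hnRNPs coat nascent transcripts and often repress the use of splice sites near their binding sites, whereas SR proteins mostly bind exons and help the splicing machinery to recognise them. SAF-A is itself an hnRNP (hnRNP U), and many proteins of both families act on overlapping sets of exons. Several of these genes limit their own output: when the protein is abundant, an exon with an early stop codon (a poison exon) is included or an intron in the 3′ UTR is removed, and the resulting mRNA is degraded by nonsense-mediated decay instead of making protein.

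Levels are FPKM, fragments per kilobase of transcript, scaled to the number of mapped reads, as the authors deposited them, summed over the transcripts of a gene. Because FPKM is scaled by transcript length, levels of different genes can be compared. HNRNPU, the target of the siRNA, was at 91.2, 10.4, 84.6 and 9.24 FPKM, so that its level under SAF-A siRNA was 11.4% of control at 24 h and 10.9% at 48 h. The SAF-A 48 h library stands apart by depth. The deposited values imply 1216740 mapped reads for it and between 28083822 and 30701282 for the others, so that 1 FPKM of a transcript of 2 kb corresponds to 2.19 reads there and to between 50.6 and 55.3 reads elsewhere. Every siRNA result at 48 h rests on that library. The siRNA comparison at 24 h and the comparison of the control libraries over time do not use it. VIM, KRT8, KRT18 and LMNA, genes of the epithelial and mesenchymal cytoskeleton and lamina, were detected in all libraries. Of 8 markers of differentiated retinal pigment epithelium, MITF (4.23 to 9.01 FPKM) and OTX2 (2.16 to 3.77 FPKM) averaged at least 1 FPKM, and RPE65 was listed at 0 in every library. TERT, the gene of the catalytic subunit of telomerase, was at 0.243 to 0.908 FPKM, under 1 FPKM in every library. The markers of other cell types (PTPRC, PECAM1, CDH5, ALB and MYOD1) summed to between 0.084 and 0.347 FPKM, with MYOD1 listed at 0. In bulk RNA fewer cells of a type and less RNA per cell cannot be told apart.

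At 24 h SAF-A siRNA was accompanied by small differences, mostly downward. Summed over the 38 genes, the level was 2615 FPKM in the control and 2291 FPKM in the SAF-A library, or 87.6% of control. On the scale of log2(FPKM + 1), which understates the change of low genes, 29 of the 38 were below 0 and 9 above, with a median of -0.16 and a range from -0.58 to 0.46. Over all genes tested, 64.3% were below 0 and the median was -0.07. None of the 38 differed by 2-fold or more, against 0.389% of genes tested that were 2-fold higher and 0.244% that were 2-fold lower. The deposited 95% intervals, which cover counting and assignment error within a library and not variation between cultures, did not overlap for 13 of the 36 genes that had an interval in both libraries with the SAF-A library lower, and for 1 gene with it higher. The same was seen in 18.4% of genes tested (lower) and 8.61% (higher). Counting error depends on level, and the genes tested, which reach down to a mean of 1 FPKM, were not matched in level to the 38. The 13 were HNRNPA0, HNRNPAB, HNRNPC, HNRNPDL, HNRNPH1, PTBP1, RBMX, SRSF2, SRSF3, SRSF5, SRSF6, SRSF7 and TRA2B, and the gene on the higher side was PTBP3. Members near 0 change sign with the scaling: centring on the median change of expressed genes left 22 of 38 below 0, and rescaling to TPM (the same values scaled to a fixed sum per library) over genes of at least 300 nt left 31.

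At 48 h the differences were larger and again mostly downward. The summed level was 2478 FPKM in the control and 1472 FPKM in the SAF-A library, or 59.4% of control. On the log2 scale 29 genes were below 0 and 9 above, with a median of -0.74 and a range from -2.22 to 1.56. The median was -0.11 over all genes tested and 0.26 over the 3355 genes that averaged at least 20 FPKM over the 4 libraries. Since SAF-A 48 h counts in that average, a high value there helped a gene into the set. The 38 genes were not held to that level (HNRNPA0 averaged 19.1 FPKM and TARDBP 5.32 FPKM). The part of this choice of genes in the distance between -0.74 and 0.26 was not tested. HNRNPA0, HNRNPA1, HNRNPA3, HNRNPAB, HNRNPC, HNRNPF, SYNCRIP, PCBP1, RBMX, TARDBP, SRSF3, SRSF6 and SRSF10, 13 of the 38, were at least 2-fold lower, and HNRNPH2 was at least 2-fold higher. Of all genes tested, 18.5% were at least 2-fold lower and 14.3% at least 2-fold higher. Among the 3355 genes, to which the same limit applies, those shares were 14.2% and 23.7%. Rescaling to TPM lowered the median of all genes at 48 h by a further 0.23 and that of the 38 to -0.98, with 19 of them then 2-fold lower and 1 higher. The split over all genes tested moved from 1581 higher and 2040 lower to 1185 higher and 3076 lower. In the SAF-A 48 h library the 4 cytoskeleton and lamina genes summed to 4095 FPKM, against 2174 to 2635 FPKM in the others, but moved apart: against control 48 h VIM was at 3312 and 1586 FPKM and LMNA at 744 and 295.9 FPKM, while KRT8 was at 15.4 and 63.9 FPKM and KRT18 at 23.3 and 229 FPKM. RNAs under 300 nt made up 50.9% of the summed FPKM, against 57.3% to 63.8%. The part of these differences, and of the low depth, in the lower values of the 38 genes was not tested.

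The siRNA comparisons at 24 h and at 48 h use separate libraries. Of the 38 genes, 24 (63.2%) were below 0 at both times, 4 were above 0 at both and 10 had opposite signs. Of all genes tested, 39.8% were below 0 at both times. These counts depend on the scaling. Centring moved 7 of the 38 from below 0 to between 0.00 and 0.05 at 24 h, and all 7 were below 0 at 48 h. Neither share was recomputed with centring or TPM. A fit over all 4 libraries with siRNA and time as terms (limma, 1 residual degree of freedom, whose residual is the difference between the siRNA effects at the 2 times, pooled over genes) called 0 of the 38 higher and 0 lower at a Benjamini-Hochberg adjusted p under 0.05, beside 0.425% and 0.651% of genes tested. At an unadjusted p under 0.05 in limma it gave 0 higher and 6 lower (HNRNPA0, HNRNPA1, PCBP1, RBMX, TARDBP and SRSF10), or 15.8% of the 38. All 6 were below 0 at 48 h by at least 2-fold. Of the 11053 genes tested, 373 were higher and 693 lower at that threshold, or 9.64%. The lowest adjusted p in limma was that of SRSF10, 0.219, with a mean log2 difference of -1.32 (SE 0.49).

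**Figure D1:**
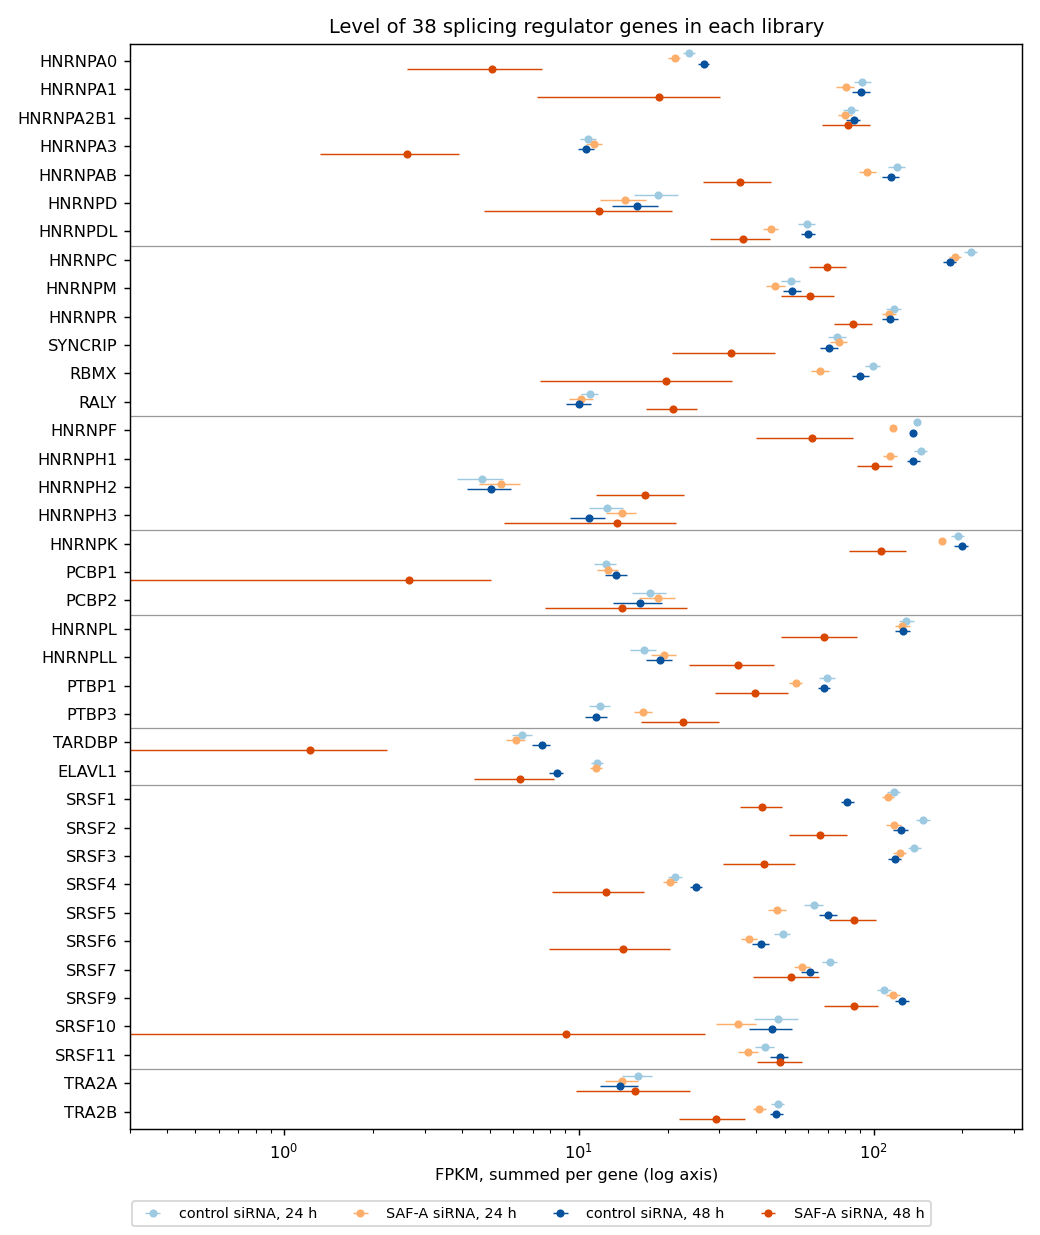
Level of each of the 38 genes in the 4 libraries, in FPKM on a log axis, with deposited 95% intervals as horizontal lines; intervals that reach below 0.3 FPKM run to the left edge, and points without a line had no usable interval. The SAF-A 48 h points lie well to the left for HNRNPA0, HNRNPA1, HNRNPA3, RBMX, PCBP1, TARDBP and SRSF10, and their intervals are wide because that library had 1216740 mapped reads.

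The hnRNP A/B and D proteins include the classic repressors of exon inclusion. Their 7 genes had a median log2 difference of -0.19 at 24 h and -1.68 at 48 h, and 4 of the 7 were at least 2-fold lower at 48 h. HNRNPA1 (chromosome 12, 54674488 to 54679030), an abundant protein that binds splicing silencers, was at 91.7 FPKM (control 24 h), 80.3 FPKM (SAF-A 24 h), 90.7 FPKM (control 48 h) and 18.7 FPKM (SAF-A 48 h). The last value is the low one, its interval (7.24 to 30.1 FPKM) is far from that of its control (84.5 to 97.0), and it rests on about 37 reads. The log2 difference was -0.19 at 24 h and -2.22 at 48 h, the lowest of the 38. A second entry of the annotation, HNRNPA1P10, has all of its 1356 exon bases inside exons of HNRNPA1 on the same strand and was listed at 44.3, 29.1, 54.4 and 14.4 FPKM. How reads were divided between these entries is not given in the sources used here. Summing both gave log2 differences of -0.31 and -2.10.

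HNRNPA0 (chromosome 5, 137087073 to 137090039), an intronless relative, was at 23.6, 21.1, 26.6 and 5.06 FPKM. Here too only the SAF-A 48 h library was low, with about 17 reads and an interval of 2.60 to 7.51 FPKM, and the log2 difference was -0.15 at 24 h and -2.19 at 48 h. HNRNPAB was at 119.8, 95.3, 114.6 and 35.2 FPKM. It was lower under SAF-A siRNA at both times, by -0.33 and -1.68 on the log2 scale. HNRNPA3 was close to its control at 24 h (10.7 and 11.3 FPKM) and lower at 48 h (10.6 and 2.62 FPKM). HNRNPA2B1, which shares its domain layout with HNRNPA1 and reads the same kinds of motif, did not follow: it was at 83.7, 79.9, 85.5 and 82.2 FPKM, with log2 differences of -0.07 and -0.06 and overlapping intervals at both times. HNRNPD, a protein that speeds the decay of AU-rich mRNAs, had log2 differences of -0.35 and -0.40 with overlapping intervals.

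The group of HNRNPC and its relatives holds abundant components of hnRNP particles and had a median of -0.13 at 24 h and -0.75 at 48 h over 6 genes. RBMX (hnRNP G, chromosome X, 135951353 to 135962939), a nuclear protein that binds nascent RNA, was at 99.5 FPKM (control 24 h), 66.1 FPKM (SAF-A 24 h), 90.3 FPKM (control 48 h) and 19.8 FPKM (SAF-A 48 h). Both SAF-A libraries lay below both control libraries, and the intervals did not overlap at either time. Its log2 difference of -0.58 was the lowest of the 38 at 24 h, and at 48 h it was -2.13, with about 43 reads. HNRNPC itself, which binds uridine tracts and keeps cryptic exons out of mRNA, was at 214, 189, 181 and 69.6 FPKM, a log2 difference of -0.17 at 24 h and -1.37 at 48 h. SYNCRIP, which acts on mRNA in the cytoplasm as well as in the nucleus, differed by 0.02 and -1.08, and its paralog HNRNPR by -0.05 and -0.41. HNRNPM stayed within overlapping intervals at both times, at 52.4, 46.5, 53.0 and 60.7 FPKM.

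RALY (chromosome 20, 32581458 to 32670991), the nearest relative of HNRNPC, went the other way at 48 h. It was at 10.9, 10.2, 10.0 and 20.9 FPKM, and the last interval (16.8 to 25.3 FPKM, about 116 reads) lies above the other three. The log2 difference was -0.09 at 24 h and 0.99 at 48 h, just under 2-fold, and 1.05 with a pseudocount of 0.1.

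The F/H proteins bind runs of guanine. HNRNPF was at 140.8, 116.4, 135.7 and 61.9 FPKM, with log2 differences of -0.27 and -1.12. The authors' tables mark its estimate as failed in both control libraries and in SAF-A 24 h, so no interval is given for those. HNRNPH1 was at 144.6, 113.8, 136.5 and 101.3 FPKM, lower under SAF-A siRNA at both times by -0.34 and -0.43. HNRNPH3 differed by 0.15 and 0.30 with overlapping intervals.

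HNRNPH2 (chromosome X, 100663121 to 100669128) was listed at 4.68, 5.43, 5.02 and 16.8 FPKM, log2 differences of 0.18 and 1.56, and was the only one of the 38 at least 2-fold higher. That value depends on how reads were divided between annotations. A read-through transcript, RPL36A-HNRNPH2, shares 2205 of the 2392 exon bases of HNRNPH2 on the same strand and was listed at 34.7, 33.4, 44.2 and 1.01 FPKM. Summed, both were at 39.4, 38.8, 49.2 and 17.8 FPKM, a log2 difference of -0.02 at 24 h and -1.42 at 48 h, so that the sign at 48 h reverses.

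HNRNPK and the poly(C)-binding proteins PCBP1 and PCBP2 bind cytosine-rich RNA. HNRNPK was at 193, 170.8, 199 and 105.8 FPKM, with differences of -0.18 and -0.90. Its estimate in SAF-A 24 h is marked as failed by the authors, so no interval is given there. PCBP1, an intronless gene, was at 12.3, 12.6, 13.4 and 2.66 FPKM, a difference of 0.02 at 24 h and -1.98 at 48 h that rests on about 5 reads in the SAF-A library. Its paralog PCBP2 differed by 0.09 and -0.19 with overlapping intervals. TARDBP (TDP-43), which binds UG repeats, resembled PCBP1: 6.43, 6.13, 7.47 and 1.23 FPKM, with a difference of -0.06 at 24 h and of -1.93 at 48 h from about 6 reads. ELAVL1 (HuR), which stabilises AU-rich mRNAs, differed by -0.01 and -0.36.

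The L and PTB proteins held 2 of the 4 highest log2 differences at each time, with a family median of 0.09 at 24 h and 0.05 at 48 h (-0.18 at 48 h after rescaling to TPM). PTBP3 (chromosome 9, 114979995 to 115095944), a paralog of the splicing repressor PTBP1, was at 11.8 FPKM (control 24 h), 16.5 FPKM (SAF-A 24 h), 11.5 FPKM (control 48 h) and 22.6 FPKM (SAF-A 48 h). Both SAF-A libraries lay above both controls, with intervals apart at each time, and the log2 differences were 0.46 and 0.92, the first being the highest of the 38 at 24 h. The higher sum at 48 h came from a transcript of 4347 nt, at 14.6 FPKM (about 74 reads) in SAF-A 48 h and at 0 FPKM in the other libraries. A transcript of 7957 nt was at 9.56, 15.1, 8.94 and 7.92 FPKM. Because FPKM is scaled by length, the size of the difference at 48 h depends on that assignment of reads. HNRNPLL, known for regulating exons of CD45 in lymphocytes, was at 16.6, 19.5, 18.8 and 34.8 FPKM, again with the SAF-A library higher at each time, by 0.22 (intervals overlapping) and 0.85 (intervals apart). Their more abundant paralogs lay on the other side. PTBP1 was at 69.6, 54.5, 67.9 and 39.8 FPKM, with differences of -0.35 and -0.76 and intervals apart at both times. HNRNPL, which binds CA repeats, was at 129.3, 125.3, 125.5 and 67.9 FPKM, with differences of -0.05 and -0.88.

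**Figure D2:**
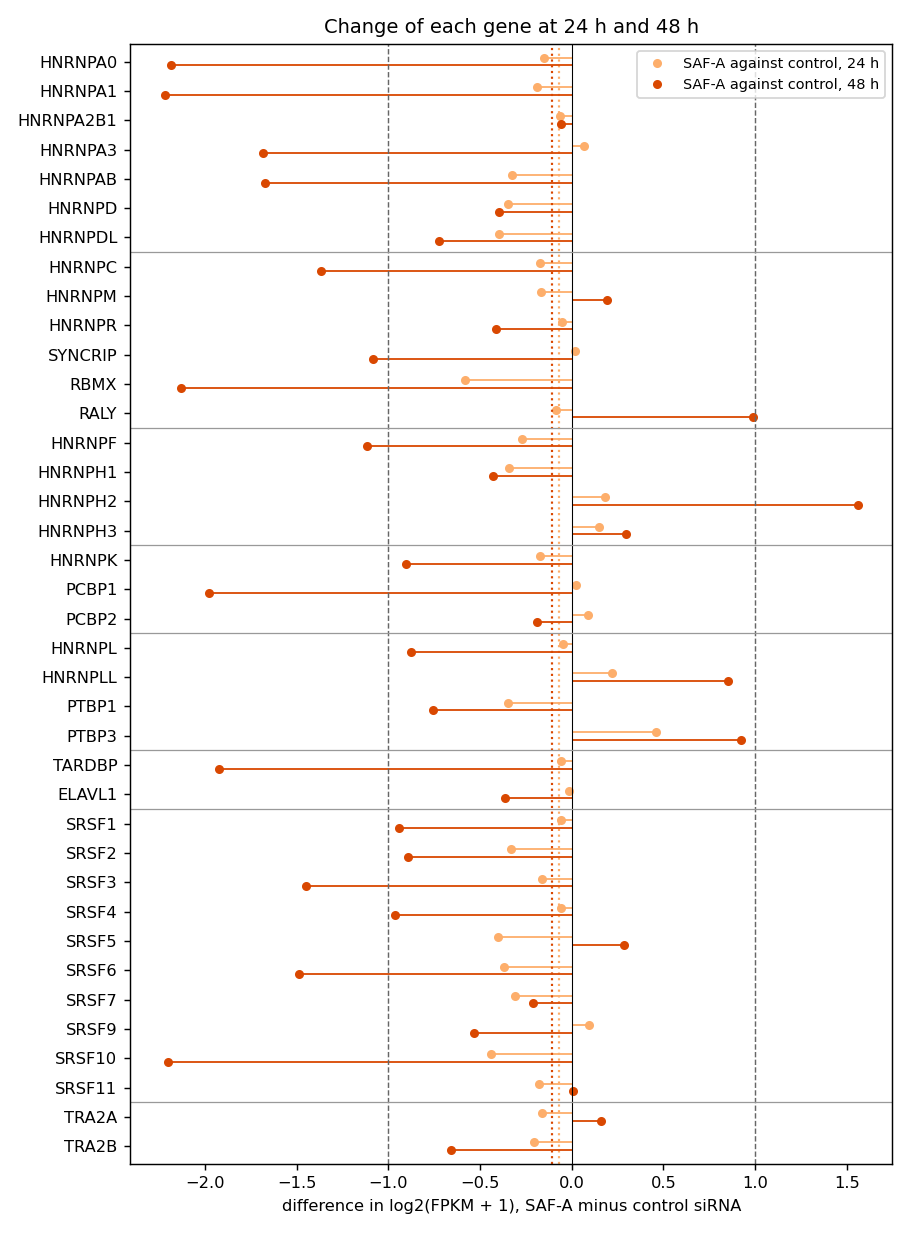
Log2 difference between SAF-A and control siRNA on the scale of log2(FPKM + 1) for each of the 38 genes at 24 h and at 48 h, with dashed lines at 2-fold and dotted lines at the median of all genes tested at each time (-0.07 and -0.11). No gene passes 2-fold at 24 h, and at 48 h 13 lie below the lower dashed line and HNRNPH2 above the upper one.

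Among the 10 SR genes, 9 were below 0 at 24 h (7 after centring) and 8 at 48 h, with medians of -0.25 and -0.92. SRSF10 (chromosome 1, 24292937 to 24306953), an SR-like protein that acts as a repressor when dephosphorylated, was at 47.4, 34.6, 45.4 and 9.06 FPKM. Both SAF-A values are the lower ones, but the intervals overlap at 24 h, and at 48 h the interval runs from 0 to 26.9 FPKM, from about 29 reads. The log2 differences were -0.44 and -2.20. The deposited annotation lists each SRSF10 transcript on chromosome 1 and again on an unlocalized contig of that chromosome, and both copies are in the sum.

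SRSF3 and SRSF6 were lower under SAF-A siRNA at both times with intervals apart. SRSF3 (chromosome 6, 36562090 to 36572244), the smallest SR protein and an adaptor for mRNA export, was at 138, 123, 118 and 42.5 FPKM, log2 differences of -0.16 and -1.45. SRSF6 (chromosome 20, 42086504 to 42092244), an enhancer-binding SR protein, was at 49.2, 37.9, 41.6 and 14.2 FPKM, log2 differences of -0.37 and -1.49. In these 2 genes the SAF-A 48 h library was the low one by a wide margin. SRSF1, the prototype of the family, was at 117, 112, 81.4 and 41.9 FPKM, and SRSF2, a nuclear activator, at 147.5, 117, 123 and 66.0 FPKM. Their log2 differences were -0.06 and -0.94 for SRSF1 and -0.33 and -0.89 for SRSF2.

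Like SRSF1 and SRSF2, the other 5 SR genes were not 2-fold changed at either time. With TPM SRSF1 (-1.18) and SRSF2 (-1.13) passed 2-fold at 48 h. SRSF5, was at 62.6, 47.2, 70.1 and 85.8 FPKM, lower with SAF-A siRNA at 24 h (-0.40, intervals apart) and at 0.29 above its control at 48 h, where the intervals overlapped. SRSF4 was at 21.3, 20.4, 25.04 and 12.4 FPKM, differences of -0.06 and -0.96, and at 48 h it passed 2-fold with a pseudocount of 0.1 (-1.01), with centring (-1.004) and with TPM (-1.22). SRSF7 differed by -0.31 and -0.21, SRSF9 by 0.10 and -0.54, and SRSF11 by -0.18 and 0.01. TRA2B, which activates exons rich in GAA, was at 47.3, 40.9, 46.8 and 29.3 FPKM, with differences of -0.20 and -0.66 and intervals apart at both times. Its paralog TRA2A differed by -0.16 and 0.16 with overlapping intervals. Exons of SRSF2, SRSF9, PCBP2, HNRNPH3 and SRSF5 overlap a gene on the opposite strand, by 115 to 671 bases, and whether reads were assigned by strand is not given in the sources used here.

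Non-productive transcripts were examined next, since several of these genes are known to switch to them. RefSeq lists transcripts of a coding gene that are not expected to make the protein as non-coding (NR), beside its coding (NM) transcripts. The share of a gene's FPKM in the non-coding ones is called its non-productive share here. It depends on how reads that fit both kinds of transcript were divided between them, and that division was not tested. 7 of the 38 genes have both kinds: SRSF1, SRSF2, SRSF3, SRSF6, SRSF10, RBMX and HNRNPDL. Read from the gene's usual start codon, all 8 non-coding transcripts of the 38 genes in which a reading frame could be followed reach a stop more than 50 nt before the last exon junction, the position that marks an mRNA for nonsense-mediated decay, whereas 6 of 92 coding transcripts do. Over all genes the numbers were 1532 of 1752 non-coding (87.4%) and 1521 of 24581 coding transcripts (6.19%).

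In SRSF3 and SRSF6 the non-coding transcript carries 1 exon more than the coding one, and that exon holds the early stop. Both exons are printed because they set the non-coding transcripts of these genes apart from the coding ones. They are given 5′ to 3′ on the plus strand of GRCh37, with the stop codon that ends the frame in capitals. In SRSF3 the exon (transcript NR_036610) is 456 nt long, its first 300 bases lie at chr6:36567598-36567897, and its stop begins at base 32 of the exon after 124 codons. In SRSF6 the exon (transcript NR_034009) is 268 nt long, lies at chr20:42087793-42088060, and its stop begins at base 150 after 135 codons.
SRSF3 poison exon: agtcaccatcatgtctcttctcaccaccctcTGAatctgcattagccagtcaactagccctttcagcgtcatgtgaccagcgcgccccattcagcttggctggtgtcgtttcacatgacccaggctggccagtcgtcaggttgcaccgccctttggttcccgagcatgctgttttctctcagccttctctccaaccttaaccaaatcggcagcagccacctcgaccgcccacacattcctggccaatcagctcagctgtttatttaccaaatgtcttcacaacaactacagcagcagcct
SRSF6 poison exon: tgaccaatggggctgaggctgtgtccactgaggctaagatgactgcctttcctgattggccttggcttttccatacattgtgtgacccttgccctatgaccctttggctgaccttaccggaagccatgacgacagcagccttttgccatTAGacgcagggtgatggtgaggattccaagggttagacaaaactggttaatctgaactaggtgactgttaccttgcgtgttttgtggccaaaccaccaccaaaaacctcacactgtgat

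At 48 h the coding transcripts of both genes were lower with SAF-A siRNA while the transcripts with these exons were not lower beyond their intervals. The coding transcript of SRSF3 was at 119.9 FPKM (control 24 h), 106.2 FPKM (SAF-A 24 h), 99.4 FPKM (control 48 h) and 17.3 FPKM (SAF-A 48 h). The transcript with the exon printed above was at 17.6, 16.6, 18.4 and 25.2 FPKM. The coding transcript is thus low in 1 library only, from an estimated 62 reads. The non-coding one stays within a narrow range, with an estimated 104 reads and an interval of 19.2 to 31.1 FPKM in that library. The interval in its control ends at 19.8 FPKM. The coding and non-coding transcripts, of 3144 and 3600 nt, differ by the exon of 456 nt. Their values, and these read numbers, therefore depend on how reads from the shared exons were divided between them.

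The non-productive share of SRSF3 was 12.8%, 13.5%, 15.6% and 59.3% in the same order. The most extreme combination of the deposited bounds gives 45.5% to 72.9% for SAF-A 48 h and 14.0% to 17.3% for control 48 h, ranges that do not overlap. At 24 h the shares differed by less than their ranges.

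SRSF6 showed the same arrangement at lower levels. Its coding transcript was at 39.4, 29.3, 29.5 and 5.05 FPKM, and the transcript with the extra exon was at 9.80, 8.55, 12.02 and 9.11 FPKM. The share was 19.9%, 22.6%, 28.9% and 64.4%, with a range of 42.1% to 85.3% in SAF-A 48 h against 26.0% to 31.9% in its control. The SAF-A 48 h values rest on an estimated 22 reads for the coding and 42 reads for the non-coding transcript. These transcripts, of 3746 and 4014 nt, differ by the exon of 268 nt, so their values too depend on how shared reads were divided. The share was also higher at 48 h than at 24 h in the control libraries, with ranges of 17.6% to 22.3% and 26.0% to 31.9%.

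**Figure D3:**
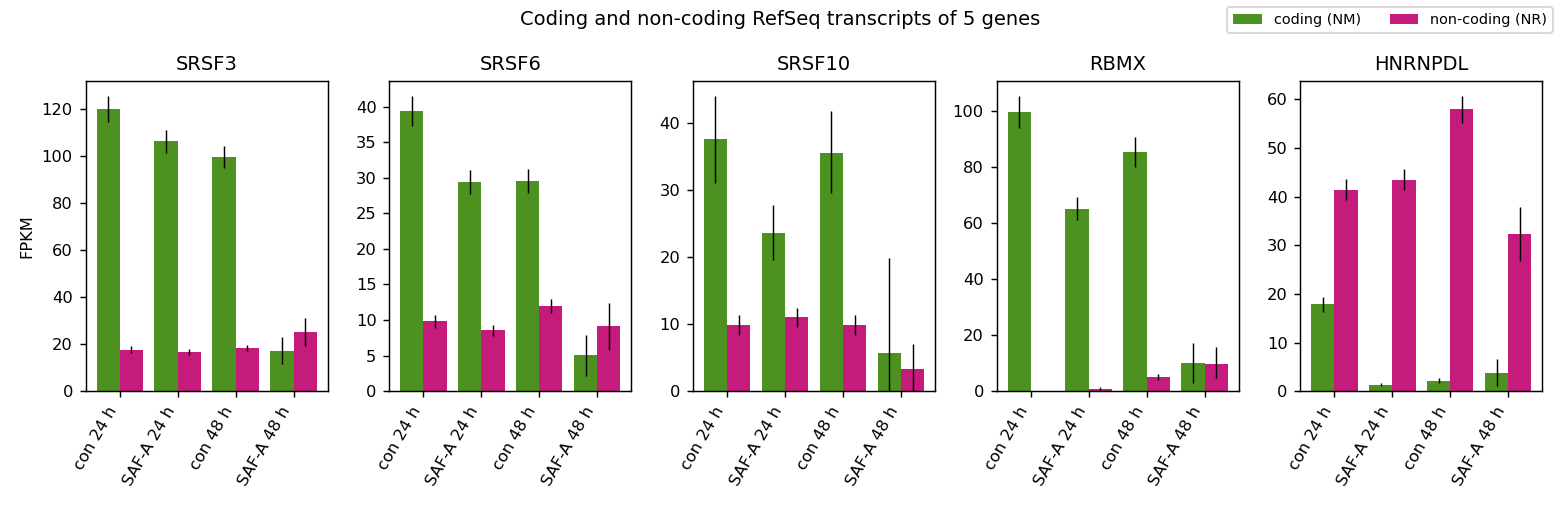
FPKM of the coding (green) and non-coding (magenta) RefSeq transcripts of SRSF3, SRSF6, SRSF10, RBMX and HNRNPDL in each library, with summed deposited 95% bounds as error bars. In SRSF3, SRSF6 and RBMX the green bar of SAF-A 48 h is far below the others and no longer stands above the magenta bar beyond its error.

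RBMX also held a larger non-coding share at 48 h, but through another transcript. The share was 0.00056%, 1.42%, 5.56% and 49.1%, with a range of 21.0% to 84.8% in the last library against 4.34% to 6.94% in its control. The coding transcripts summed to 99.5, 65.1, 85.2 and 10.1 FPKM. In SAF-A 48 h the non-coding signal (9.71 FPKM, about 20 reads) was assigned to NR_028476, which was listed at 0.001 FPKM or less in the other libraries. In control 48 h it was assigned to NR_028477 (5.02 FPKM). These 2 non-coding transcripts therefore did not change in 1 direction together. The share of RBMX likewise depends on how reads were divided between its coding and non-coding transcripts.

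SRSF10 differed at both times but with little precision at 48 h. Its share was 20.9%, 31.8%, 21.7% and 36.7%. At 24 h the ranges of 16.0% to 26.9% and 25.8% to 38.7% overlap slightly, and at 48 h the range in the SAF-A library runs from 0% to 100%. The coding transcripts were at 37.5 FPKM in control 24 h and 23.6 FPKM in SAF-A 24 h, and the non-coding ones at 9.90 and 11.0 FPKM. At 24 h, where both libraries are deep, the difference was thus in the coding transcripts.

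HNRNPDL (chromosome 4, 83343717 to 83351378), a relative of HNRNPD whose own 3′ UTR is spliced, differs from the others because the library that stands apart is a control. The gene was at 59.3, 44.8, 60.1 and 36.0 FPKM, lower with SAF-A siRNA at both times with intervals apart (-0.40 and -0.72). Its non-productive share was 69.9%, 97.0%, 96.4% and 89.6%. The coding transcript NM_031372 was at 15.9 FPKM in control 24 h and at 0.065 FPKM or less in the others. It has the same reading frame as the non-coding NR_003249, which holds 1 more exon of 105 nt after the stop. The difference at 24 h therefore comes with one of the same kind between the 2 control libraries. SRSF1 and SRSF2 had lower shares, of 0.181% to 3.80% and 1.51% to 3.64%.

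By a shift of at least 10 percentage points in genes of at least 5 FPKM, 2 of the 7 genes (HNRNPDL and SRSF10) had a higher share with SAF-A siRNA at 24 h and 0 a lower one, where 8.48% and 9.55% of 660 genes tested did. At 48 h 4 of 7 (RBMX, SRSF10, SRSF3 and SRSF6) had a higher share and 0 a lower one, beside 18.8% and 19.2% of 600 genes. With ranges that must not overlap, 3 of the 7 remained at 48 h (RBMX, SRSF3 and SRSF6), beside 69 higher and 67 lower of the 600. Shifts in both directions were thus about equally common over all genes. Between the control libraries 1 of 7 (HNRNPDL) had a higher share at 48 h than at 24 h and 0 a lower one, beside 10.1% and 11.3% of genes. Between the SAF-A libraries 3 of 7 (RBMX, SRSF3 and SRSF6) had a higher share and 0 a lower one, beside 18.2% and 18.2%. This last comparison shares the SAF-A 48 h library with the siRNA comparison at 48 h.

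**Figure D4:**
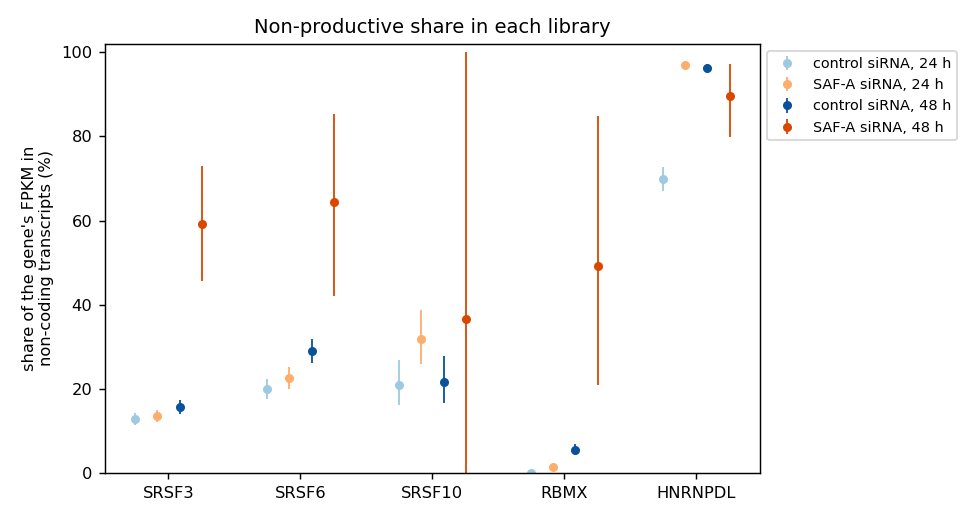
Non-productive share, the percentage of a gene's FPKM in non-coding RefSeq transcripts, by library, with the range from the deposited 95% bounds. Drawn are the genes with both kinds of transcript and a share of at least 5% in any library. SRSF1 and SRSF2 have both kinds but stayed under 5% and are left out. SRSF3, SRSF6 and RBMX lie apart from their control in SAF-A 48 h, and HNRNPDL is low in control 24 h alone.

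When a transcript was called non-productive by its reading frame instead of its RefSeq class, 11 genes could be examined. The 2 genes at 24 h were the same. At 48 h 5 had a higher share, TRA2B in addition to those above, and 2 had a lower one, SYNCRIP and TRA2A, beside 160 higher and 175 lower of 876 genes. In TRA2B, SYNCRIP and TRA2A the transcripts called by this rule are listed by RefSeq as coding. Their frames from the usual start end after 13, 67 and 12 to 59 codons, and use of another start was not tested. The transcripts of TRA2B called in this way summed to 3.51 FPKM in SAF-A 48 h and to at most 0.142 FPKM in the other libraries. The share of TRA2B at 48 h was thus 11.97% and in its control 3.9e-05%. The share of SYNCRIP was 8.07%, 17.7%, 14.8% and 0.00046%, with 10.5 FPKM in non-productive transcripts in control 48 h, and its ranges at 48 h (13.2% to 16.7% and up to 1.21%) lie apart. The share of TRA2A was 7.44%, 13.7%, 21.3% and 0.00021%, with ranges at 48 h (14.9% to 28.2% and up to 21.1%) that overlap.

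Transcript usage was also compared over all transcripts of a gene, as the part of the gene's FPKM that would have to move between transcripts to turn one library's shares into the other's, with 0.3 or more taken as a shift. At 24 h 1 of 30 genes shifted, beside 9.26% of genes tested. That gene was PCBP2, with a value of 0.83. In PCBP2 most signal was in NM_031989 in control 24 h (10.2 FPKM) and in NM_005016 in SAF-A 24 h (10.8 FPKM), but usage also differed by 0.40 between the control libraries. At 48 h 14 of 31 genes shifted, beside 38.5% of genes tested. The highest values were those of HNRNPD (0.74), HNRNPF (0.71), PTBP3 and PCBP2 (both 0.65) and HNRNPAB (0.55). With time 3 of 30 shifted under control siRNA (HNRNPD, HNRNPK and PCBP2), beside 9.70%, and 13 of 31 under SAF-A siRNA, beside 38.3%. The counts of the 38 genes were thus near the share of all genes in the comparisons that rest on the SAF-A 48 h library.

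With time alone, from 24 h to 48 h under control siRNA, no gene of the 38 changed 2-fold. The median log2 difference was -0.04, beside 0.03 over all genes tested. Of genes tested, 0.561% were 2-fold higher and 0.425% lower, and the lowest of the 38 was SRSF1 at -0.52. The deposited intervals did not overlap for 4 higher and 7 lower of the 37 genes with an interval in both libraries, beside 19.1% and 13.2% of genes tested. Under SAF-A siRNA 1 gene was at least 2-fold higher (HNRNPH2) and 13 at least 2-fold lower, beside 15.5% and 16.0% of genes tested, and the median was -0.57 beside -0.01.

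Genes that act on SR proteins and on non-productive transcripts were examined as lists. Of 11 SR protein kinases and importers, 0 were 2-fold changed at 24 h, and at 48 h 1, the importer TNPO3, was 2-fold lower (24.8 FPKM in the control and 10.4 FPKM in the SAF-A library). The median was -0.07 and -0.41. Of the 11, 2 were above 0 and 9 below at 24 h, and 4 above and 7 below at 48 h. CLK1, a kinase that phosphorylates SR proteins in the nucleus, was at 15.0, 20.0, 23.1 and 39.7 FPKM, log2 differences of 0.39 and 0.76. Between the control libraries it differed by 0.58, more than between siRNAs at 24 h. Its relatives CLK3 (-0.15 and 0.74) and CLK4 (-0.03 and 0.82) were below 0 at 24 h and above 0 at 48 h. The kinase SRPK2 was also above 0 at both times (0.11 and 0.50), whereas SRPK1 (-0.19 and -0.58) and CLK2 (-0.20 and -0.70) were below. Of 10 factors of nonsense-mediated decay, 0 were changed at 24 h and 1, UPF3A, was 2-fold lower at 48 h (7.70 and 2.82 FPKM), with medians of -0.10 and -0.24. The helicase at the core of that pathway, UPF1, was at 25.3, 22.0, 27.4 and 21.4 FPKM. Of 29 other splicing regulators that passed the filter, out of 32, 0 were changed at 24 h and 4 were 2-fold lower at 48 h (MBNL1, SRRM1, RNPS1 and LUC7L3), with medians of -0.07 and -0.21. MBNL1, a regulator of developmental exon choice, was at 67.6, 52.2, 45.8 and 9.43 FPKM. The count of 2-fold changes in these lists at 48 h (all lower) stands beside the 18.5% of all genes tested that were lower.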

How the data were processed

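RPE1 cells were profiled by RNA-seq (rRNA-depleted total RNA, 50-base single-end reads, per the labels' protocols) in 4 groups with 1 library each. The authors deposited FPKM values with 95% bounds and a status for each RefSeq transcript, and transcript files whose attribute column (another kind of value: text holding FPKM, bounds and coverage) gave exons and depth, per the file headers. Per the submitters' processing notes, which give no roles, the tools were TopHat2 2.0.10, Bowtie2 2.1.0, Cufflinks 2.2.1 and Cuffdiff, with hg19. Strand use and the handling of reads with several matches are not given in the sources used here.

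Transcript rows were joined to symbols (97.1% matched) through a RefSeq table, and FPKM and bounds were summed per symbol, which makes the bounds wide. Genes tested were those of 300 nt or more (spliced) with a mean of at least 1 FPKM. Estimated reads assume a fragment of 200 nt. Within a time point or an siRNA there is 1 library per group and no test: a gene was called at a 2-fold difference in log2(FPKM + 1), with a pseudocount of 1. Added after the data were seen, limma 3.58.1 (R 4.3.3) fitted siRNA and time over the 4 libraries, with Benjamini-Hochberg adjustment. Reading frames used start codons of GENCODE release 44 on GRCh37, the build of the exon sequences, which are RefSeq exons by the deposited coordinates. The members and lists were chosen with earlier results of these data known. The rule for named genes took the 4 lowest and 4 highest at each time and those with a non-productive share of at least 5%; the other members are described as part of their families. Alternatives were a pseudocount of 0.1, centring on the median of genes over 5 FPKM, TPM, a 1.5-fold threshold, filters of all lengths or 20 FPKM, and other thresholds for transcript shares. Python 3.11.15, pandas 2.3.3 and numpy 2.4.6 were used, and the calculations were tested on simulated data.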

Additional observations from a re-analysis of the deposited data

How the results depend on the processing

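With 1 library per group, no result has a replicate check, and depth limits all values from the SAF-A 48 h library. There were no replicates to pair within a group. The fit with time as a term, which compares the siRNAs within each time, was chosen after seeing the data. It called 0 of the 38 genes with a pseudocount of 0.1 and with TPM too. The lowest adjusted p in limma was 0.173 to 0.228 over the 3 settings. Of 130 recomputed counts and medians, 91 stayed within the tolerance (1.5 times for a count, 0.1 log2 for a median) and 39 moved, and of 464 single-gene values 447 stayed on their side of 2-fold. The cause of the changes below was not tested unless the setting itself tests fewer or more genes.

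No setting moved the counts of 0 genes at 2-fold at 24 h or between the control libraries. For SAF-A against control at 48 h, 2 genes were 2-fold higher with a pseudocount of 0.1, 4 at 1.5-fold and 0 when HNRNPH2 was summed with its read-through transcript. At 1.5-fold 21 were lower, and the median was -0.98 with TPM. Over the 11053 genes tested, 6243 were changed in either direction at 1.5-fold and 4439 at 2-fold with a pseudocount of 0.1. For SAF-A siRNA over time the same 3 settings gave 2, 4 and 0 higher genes, and the median was -0.69 with centring, -0.79 with TPM and -0.68 with the summed genes. HNRNPH2 reversed to -1.42 at 48 h and to -1.08 over time when summed, an alternative chosen after seeing the data.

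The non-productive count at 24 h was 1 of 7 with a shift of 20 points (7.58% of all genes) and 1 of 7 with intervals apart (15.0%). At 48 h it was 1 of 4 with at least 20 FPKM (30.9%) and 7 of 11 by reading frame, 5 higher and 2 lower (38.2%). Between the control libraries it was 3 of 7 at 5 points (35.7%) and 3 of 11 by reading frame, 2 higher and 1 lower (20.2%). Over time with SAF-A siRNA it was 1 of 4 with at least 20 FPKM (27.6%) and 6 of 11 by reading frame, 4 higher and 2 lower (36.2%). Shifted transcript usage with at least 20 FPKM was found in 0 of 23 genes at 24 h (4.30% of all genes), 7 of 19 at 48 h (30.7%), 1 of 23 between the control libraries (4.25%) and 7 of 19 over time with SAF-A siRNA (32.0%). At a threshold of 0.5 it was 5 of 31 at 48 h (21.7%), 0 of 30 between controls (3.24%) and 6 of 31 over time with SAF-A siRNA (21.8%).

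Over all genes tested, the 2-fold count of 70 at 24 h became 8 (20 FPKM), 358 (all lengths), 293 (1.5-fold) and 136 (pseudocount 0.1), and that of 109 between the control libraries became 24, 366, 574 and 239, and 171 with TPM. The 3621 at 48 h became 1273 (20 FPKM) and 6243 (1.5-fold), and the 3486 over time with SAF-A siRNA became 1265 and 6148. TPM moved the split of that last comparison from 1717 higher and 1769 lower to 1354 and 2673. Centring lowered its values by 0.12 and TPM lowered its median by 0.19.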
